A study of Drosophila melanogaster with 2 samples.

Results

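The NK homeobox gene cluster of Drosophila melanogaster is a run of homeobox genes on chromosome arm 3R, in bands 93D-E, and Polycomb-like (Pcl) peaks across it are described here. The members are the 23 peaks whose centre lies on 3R from 17190000 to 17370000 (build BDGP5), out of 2457 peaks in the list and 791 on the arm. The window was set by position, not by score. The gene cluster holds tin, bap, lbl, lbe, C15 and slou.

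ChIP-seq, in which DNA bound by a protein is precipitated with an antibody and sequenced, gave 1 list of Pcl peaks for whole embryos aged 0 to 8 h. The embryos were untreated, and the antibody was KW4-Pcl-D2. The sample title names replicates 1, 2 and 3, which share this list. The other sample is chromatin input of the same stage, which served as the control and was not analysed here. The protocol names iso1 (y; bw cn sp) flies alongside transgenic flies and does not say which were used for Pcl. Whole embryos of this age span many stages and all cell types, so a peak does not show in which cells Pcl was bound. Neither replicate error nor sequencing depth can be had from the list, no test between conditions exists, and every comparison is a description of this list.

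Pcl is a PHD-finger protein that joins Polycomb repressive complex PRC2, which methylates lysine 27 of histone H3 and keeps developmental genes silent outside their own cells. In flies, Polycomb proteins are recruited at Polycomb response elements, and regions that carry many developmental regulators often hold several bound sites. The homeobox genes here encode transcription factors of mesoderm, muscle and other tissues. In fly embryos tin (tinman) is needed for the heart and the visceral mesoderm, and bap (bagpipe) for the gut musculature. The ladybird genes lbl and lbe act in the identity of heart cells and body wall muscles, slou (slouch) acts in muscle founder cells, and C15 (clawless) acts in the tip of the leg.

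In the order of a Release 6 gene table, tin and bap stand first, followed by Ugt49B2, CG7907, CheB93a and CheB93b, then lbl and lbe, then Fancm, C15, sp3 and slou. All 6 homeobox genes were found in that table, with 6 other protein-coding genes and 6 long non-coding RNA genes between tin and slou. On the side of tin the next protein-coding gene was mod(mdg4), and on the side of slou it was CG15498. Gene positions on BDGP5 were not used here, and positions were not carried over between builds. No peak is therefore assigned to a gene, and whether each of the 6 genes lies within the window was not checked.

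Pcl peaks in the window fell into 3 groups, separated by stretches of 26.1 and 23.5 kb without a peak. A group here is a run of peaks with gaps under 10 kb. The groups held 3, 16 and 4 peaks in map order, and each contained a peak with a score of at least 200. The division depends on the limit: at 5 kb all 3 groups would split further, and the largest would hold 12 peaks. The score is the peak caller's own value as the authors deposited it. Its scale is not stated, so it serves only to rank and describe peaks within the list. Scores in the list run from 50.01 to 2377.39.

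**Figure D1:**
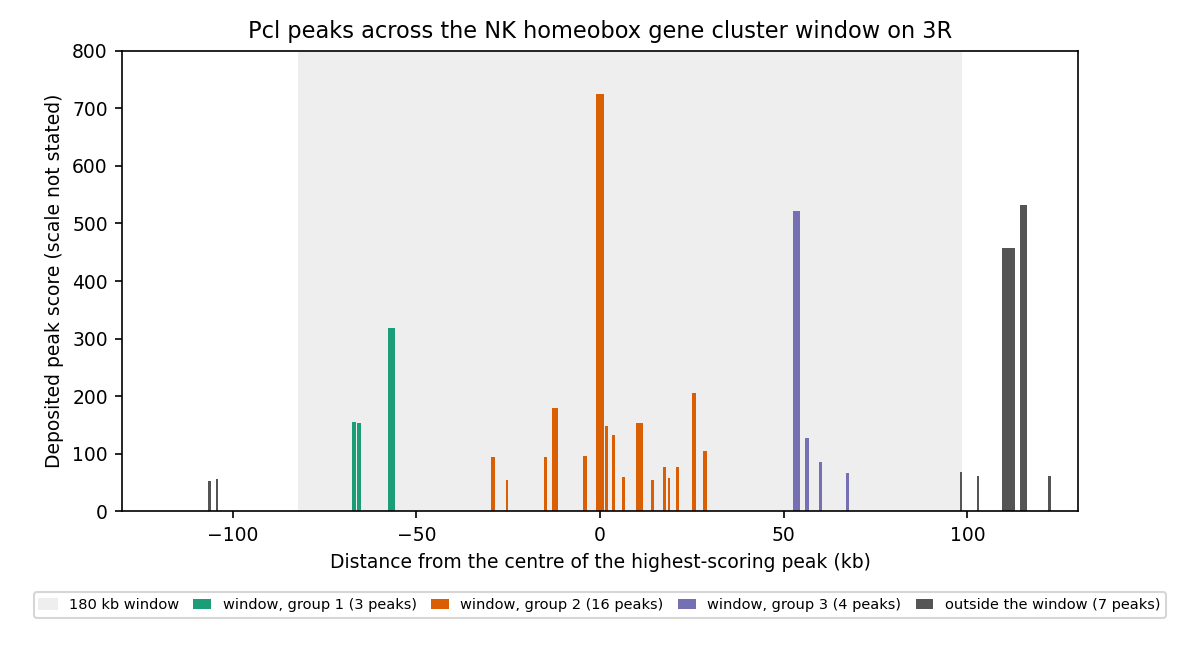
Pcl peaks across the window, with distance from the centre of the highest-scoring peak in kb on the x axis and the deposited score on the y axis; each bar is 1 peak drawn to its width, coloured by group, and grey bars are peaks outside the shaded 180 kb window. Each of the 3 groups has a single tallest peak (scores 318, 724 and 522), and the next tall pair (457 and 533) stands beyond the high-coordinate edge.

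The first group, at the low-coordinate end, ran from 17204338 to 17216173, a length of 11.8 kb. Its first 2 peaks lay 227 bp apart, at 17204338 to 17205386 scoring 155 over 1049 bp, and at 17205614 to 17206766, scoring 153 over 1153 bp. The third peak, at 17214211 to 17216173, stood 7444 bp further on and scored 318 over a width of 1963 bp. It was the third highest of the window and held rank 106 in the list of 2457 and rank 50 on 3R. None of the 3 peaks of this group scored below 100, and the tallest was the one on the side facing the middle of the window.

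The second group held most of the peaks. It ran from 17242299 to 17300879, a length of 58.6 kb, and its 16 peaks covered 29.4% of it. By number of peaks it held rank 4 among the 396 groups of 3R and rank 5 among the 1453 groups of the list, and by length it held the same ranks. Lone peaks count as groups in these totals, and 194 of the 1453 groups held at least 3 peaks. The peak of the second group at 17270737 to 17272973 was the highest and widest of the window, scoring 724 over 2237 bp. This peak held rank 30 by score in the list and rank 12 on the arm. Its score was 3.53 times the second highest of the group, although a ratio of scores has no known meaning in terms of bound Pcl.

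On the high-coordinate side of this highest peak the spacing was tight. The next peak, at 17273171 to 17274137 with a score of 149, began 197 bp after it ended, the shortest gap of the window. A further 950 bp on, the peak at 17275088 to 17275910 scored 132. On the low-coordinate side, the peak at 17267328 to 17268368 scored 96.8 and lay 2368 bp away, near the window's median gap of 2404 bp. The gap on the far side of that peak was 6996 bp. Of the 23 members, 11 had their centre within 20 kb of that of the highest peak, itself included.

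The low-coordinate part of the second group was thinly filled. It opened with peaks at 17242299 to 17243266 (score 93.6) and 17246199 to 17246866 (score 55.1), followed by 9622 bp without a peak, just short of the 10 kb that would have split the group. Then came the peaks at 17256489 to 17257444 (score 94.9) and 17258853 to 17260331 (score 179, width 1479 bp). The peak scoring 179 was the fifth highest of the window and held rank 222 in the list.

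Past the highest peak, higher and lower scores took turns. The peak at 17281691 to 17283518 was broad for its score, at 1828 bp and 154, and ranked 4 among the members by width but 7 by score. On either side of it lay weak peaks, at 17277744 to 17278626 (score 59.2) and 17285784 to 17286537 (score 54.5). The value of 54.5 was the lowest score of the window and held rank 2164 in the list. Weak to middling values continued with peaks at 17288977 to 17289805 (score 76.8), 17290340 to 17291006 (score 58.6) and 17292428 to 17293451 (score 77.7). The group closed with the peak at 17296768 to 17297901, which scored 205, rank 4 among the members, and the peak at 17299933 to 17300879, which scored 104. All 4 members with a score under 60 were among the 16 peaks of this group. The groups at either side of it, of 3 and 4 peaks, held none. In the whole list 640 of 2457 peaks (26.0%) scored under 60, and on the rest of 3R 26.7% did. The 4 of 16 peaks are thus near the background share.

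The third group ran from 17324342 to 17339541, a length of 15.2 kb. Its first peak, at 17324342 to 17326278, scored 522 with a width of 1937 bp. This was the second highest score of the window, with rank 49 in the list and rank 27 on the arm. The scores of the following peaks were lower with each step away from it, at 128 (17327565 to 17328719), 85.6 (17331548 to 17332384) and 67.3 (17338784 to 17339541). The gaps between these peaks were wider with each step too, at 1286, 2828 and 6399 bp. As in the first group, the tallest peak stood at the edge facing the middle of the window.

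In all 3 groups the highest-scoring peak was also the widest. Among the 54 groups of at least 3 peaks on the rest of 3R, this held for 38 (70.4%). A peak with a score of at least 200 was present in all 3 groups of the window, in 22 of those 54 groups (40.7%) and in 70 of the 194 groups of at least 3 peaks in the whole list (36.1%). With 3 groups these shares are a description and were not tested.

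Spacing within the window was short. The 22 gaps between neighbouring members had a median of 2404 bp and ranged from 197 to 26125 bp, against a median of 10836 bp for 765 gaps on the rest of 3R and 16471 bp for 2409 gaps on the 5 large arms. Gaps under 1 kb numbered 4, gaps from 1 to 5 kb 12, gaps from 5 to 10 kb 4, and gaps of 10 kb or more 2. Gaps of 10 kb or more thus made up 9.09% in the window, against 51.1% on the rest of the arm and 58.7% on the 5 large arms. Most members therefore had a neighbour within a few kb, and the 2 long gaps separate the 3 groups. The gaps of 36.4 and 30.2 kb that bound the members were counted neither in the window nor in the rest of the arm. Also left out was the gap of 3957 bp that follows the peak at 17369704 to 17370451, which overlaps the window edge. A window of 180 kb with 23 peaks has little room for long gaps, so the contrast partly restates its density.

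**Figure D2:**
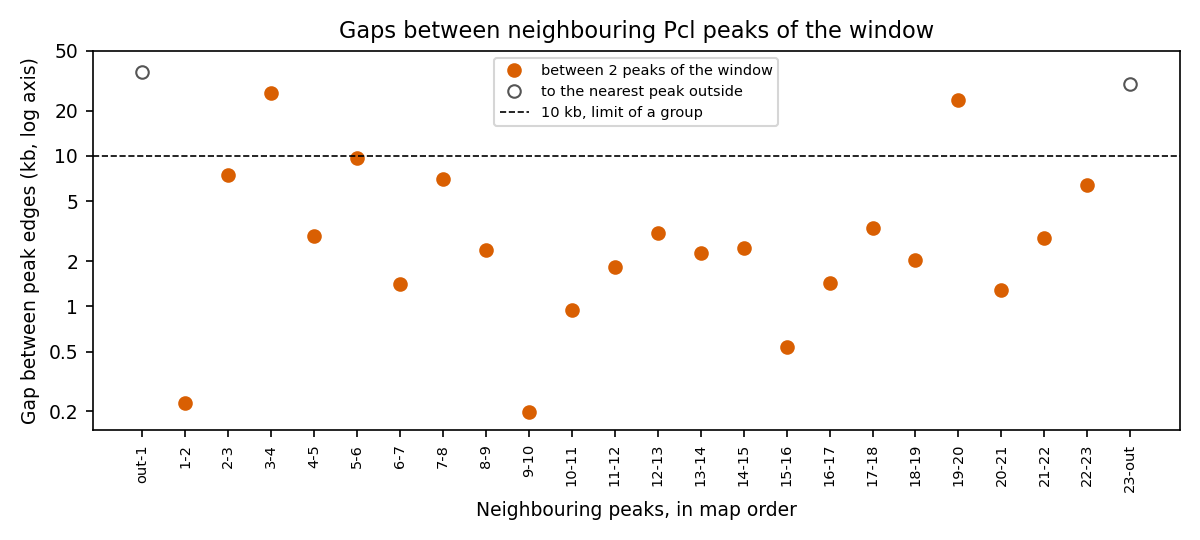
Gaps between the edges of neighbouring Pcl peaks in map order, in kb on a log axis; filled points are the 22 gaps between members, open points the distances from the first and the last member to the nearest peak outside the window, and the dashed line is the 10 kb limit of a group. The 2 filled points above the line (26.1 and 23.5 kb) split the members into 3 groups, and both outer distances (36.4 and 30.2 kb) are longer still.

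Both ends of the window lacked peaks. Within the window edges as given, the empty stretch was longer at the high-coordinate end, whereas the distance to the nearest peak outside was longer at the low-coordinate end. With the window widened by 20 kb at each end, the order within the edges turned, at 34338 bp without a peak on the low-coordinate side and 1794 bp on the high-coordinate side. On the low-coordinate side, 14.3 kb from the window edge to the first member held no peak, and the stretch without a peak continued outside the window to a total of 36.4 kb. The nearest peaks beyond it, at 17167259 to 17167952 and 17165196 to 17165927, scored 56.7 and 51.9, near the bottom of the list. On that side the peak-free stretch thus led to weak peaks.

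On the high-coordinate side, no member lay in the last 30.5 kb of the window, 16.9% of its length. This end was set by the window edge. The next peak, at 17369704 to 17370451 with a score of 68.9, overlapped the edge, and its centre lay 77 bp outside. It opened a group of 5 peaks that ran to 17394601 and included peaks at 17381199 to 17384733 (score 457, width 3535 bp) and 17386216 to 17388206 (score 533, width 1991 bp). The score of 533 was higher than that of 22 of the 23 members, and the width of 3535 bp exceeded that of every member. High Pcl scores therefore continued beyond the empty high-coordinate end, unlike at the low-coordinate end.

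Divided into 9 segments of 20 kb from the low-coordinate edge, the window held 2, 1, 2, 3, 7, 4, 2, 2 and 0 member centres. The fifth segment, 80 to 100 kb from that edge, contained the highest peak, and peaks covered 41.6% of it. The sixth followed with 18.9% and the fourth with 17.4%. In the other 6 segments the coverage was between 1.49% and 15.5%, and the last segment owed its coverage to the peak on the window edge.

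Members ranked high in the list more often than low. Their median score was 104 (quartiles 77.3 and 154), against 73.3 for the 768 peaks on the rest of 3R and 73.6 for the whole list. Between the quartiles of the list, from low to high score, lay 4, 1, 7 and 11 members. Of the 23 members, 12 scored at least 100 (52.2%, exact 95% binomial interval 30.6 to 73.2), against a background of 27.3% of all peaks. A score of at least 200 was found in 4 members (17.4%, interval 4.95 to 38.8), against a background of 7.45%, which lies within the interval. On the rest of 3R the share was 10.3%. In the 180 kb beside the window it was 0% of 6 peaks on the low-coordinate side and 18.2% of 11 on the high-coordinate side. These intervals cover counting error only and treat neighbouring peaks as independent, which they are not.

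Members were also somewhat wider. Their median width was 968 bp (quartiles 833 and 1154 bp, range 667 to 2237 bp), against 841 bp on the rest of 3R and 830 bp in the list. Between the quartiles of the list, from narrow to wide, lay 2, 4, 9 and 8 members. Widths of at least 1300 bp were found in 5 members (21.7%, interval 7.46 to 43.7), against a background of 12.0% of all peaks, which lies within the interval. On the rest of 3R the share was 16.0%. In the 180 kb beside the window it was 16.7% of 6 peaks on the low-coordinate side and 18.2% of 11 on the high-coordinate side. The 5 members of this width held 36.2% of the 26.1 kb covered by members, and 3 of them scored at least 200. The remaining member past 200, with a score of 205, was 1134 bp wide.

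Wider members had higher scores (Spearman's rho = 0.88 over 23 members, 0.73 over the rest of 3R and 0.67 over the list; the peaks come from the same libraries and are not independent). By bands of score, the widths were as follows. Members scoring under 60 had a median width of 711 bp, against 712 bp in the list. From 60 to 100 the medians were 956 bp for 7 members and 801 bp for the list, from 100 to 200 they were 1101 bp for 8 members and 1065 bp for the list, and from 200 they were 1950 bp for 4 members and 1739 bp for the list. The members' median was thus above that of the list in each band from 60 upwards, which was not tested.

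**Figure D3:**
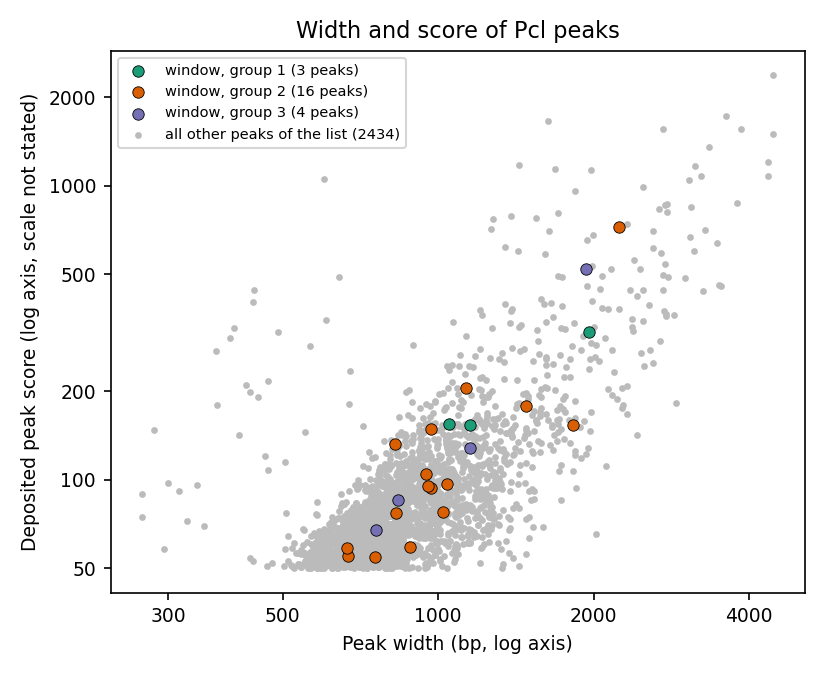
Width in bp (x, log axis) and deposited score (y, log axis) of Pcl peaks; large points are the 23 members coloured by group, small grey points are the 2434 other peaks. The members run along the main cloud from 667 bp and a score of 58.6 up to 2237 bp and 724, and the tallest peaks of the groups are 1937 to 2237 bp wide.

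As a whole, the window was among the most densely occupied stretches of its length. It held 128 peaks per Mb, against 27.8 per Mb on the rest of 3R, a ratio of 4.59, and peaks covered 14.6% of it, against 2.79% of the rest of the arm. The window of 180 kb, 0.648% of the stretch of 3R that peaks span, held 2.91% of the peaks of the arm. The flanks of the same length held fewer peaks, 6 on the low-coordinate side, with a highest score of 68.8, and 11 on the high-coordinate side, with a highest score of 533.

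When 3R was divided into 153 tiles of the length of the window, aligned to its edges, the median tile held 3 peaks and 15 tiles held none. The window held rank 4 on the arm by number of peaks and by coverage, and rank 6 by its highest score. The 3 tiles with more peaks held 52, 47 and 32. Over 623 tiles of that length on the 5 large arms, the window again held rank 4 by number of peaks, tied with 1 other. It held rank 5 by coverage and rank 20 by highest score. It thus stood higher by the number of its peaks than by the tallest of them. Tiles of the other arms started at the first peak of each arm. Tile edges can cut groups of peaks, whereas the window edges cut none of its 3 groups. The ranks therefore depend on where the tiles were placed.

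**Figure D4:**
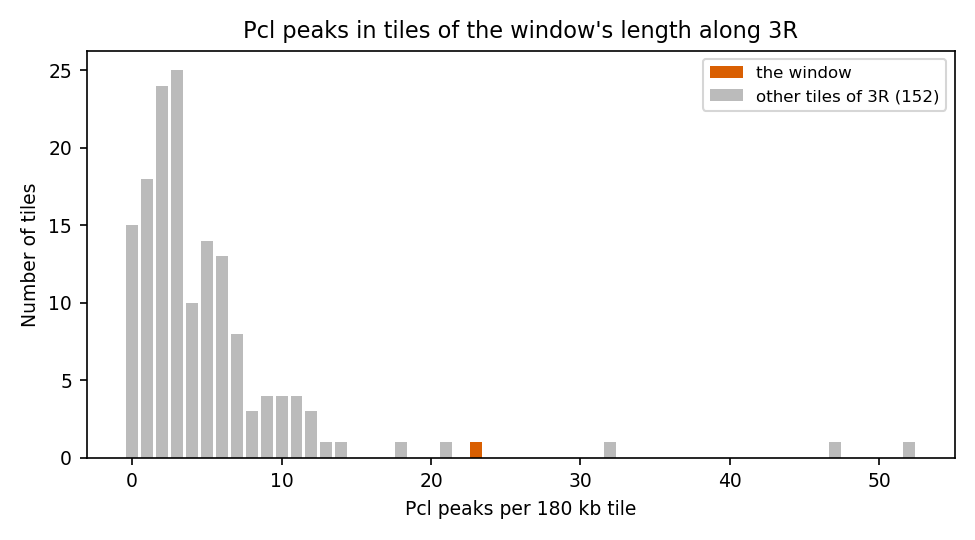
Number of Pcl peaks per 180 kb tile (x) and number of tiles with that many peaks (y) along 3R; the orange bar is the window and grey bars are the 152 other tiles. The window, with 23 peaks, is far from the median tile, with 3 peaks, and below the 3 fullest tiles, with 32, 47 and 52.

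The second group was set beside the 2 most populated other groups of the same arm, and lay between them in density, median gap and median score. It held 273 peaks per Mb, and its median gap was 2265 bp. The largest group of 3R, with 107 peaks from 12487002 to 12805868, held 336 per Mb at a median gap of 782 bp. The next group, with 20 peaks from 2780420 to 2872463, held 217 per Mb at a median gap of 4706 bp. Gaps under 1 kb numbered 3 of 15 in the second group of the window, 63 of 106 in the largest group and 5 of 19 in the next. The highest scores of the 3 groups were 724, 1496 and 769, and their median scores were 95.8, 129 and 83.4. Scores of at least 200 made up 12.5% of peaks in the second group of the window (2 of 16), 28.0% in the largest group (30 of 107) and 35.0% in the next (7 of 20). In highest score and in these shares the second group of the window had the lowest value of the 3, a difference that was not tested.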

How the data were processed

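Per the submitters' processing notes, Bowtie and build BDGP5 (Release 5) were used, and MACS called the peaks, per the file headers. For versions, settings and the way in which replicates were combined, nothing is stated in the labels or the file. The list as deposited by the authors gives a start, an end and a score for each peak, and the lowest score of 50.01 points to a cut-off near it, below which nothing is listed. The depth is unknown.

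Starts were converted to 1-based positions, and gaps were measured between peak edges. Densities on 3R use the span from its first to its last peak. Calculations used Python 3.11.15 with numpy 2.4.6, pandas 2.3.3 and scipy 1.17.1. Some were tested on simulated data: peak count, largest group, median gap, low-coordinate empty end, share scoring at least 200, coverage and joining of peaks. The others, among them ranks, tiles, segments and values for the rest of 3R, were not tested in this way. The members and lists were chosen with earlier results of these data known. Every peak of the window was named, with the 6 homeobox genes and their neighbours in the gene table (RefSeq, Release 6), and the 2 most populated other groups of 3R. Alternatives changed the minimum score, the joining of peaks, the window, the group gap and the peaks left out. Planned comparisons of protein and promoter sequences were not made, as no sequence was used here.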

Additional observations from a re-analysis of the deposited data

How the results depend on the processing

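Of 65 recomputed values of 12 results, 54 stayed within set limits. The limits were 1.5 times the reported value or, for shares, its exact 95% interval. For medians they were an interval from the ordered values, which covers less than 95%. Only Spearman's rho could have changed sign, and it did not. The limits for shares were wide. At a minimum score of 100, the share scoring at least 200 was 33.3% (reported 17.4%). The share at least 1300 bp wide was then 41.7% (reported 21.7%), or 36.8% with gaps under 1 kb joined. With a minimum score of 100, the window held 12 peaks, the largest group 4, the median width was 1154 bp, the median score 154, the median gap 5780 bp, the coverage 9.26% and the density ratio to the rest of 3R 8.20; fewer peaks by construction. The lengths of the empty ends, and which of them was the longer, followed the window: widened by 20 kb at each end, they were 34338 bp on the low-coordinate and 1794 bp on the high-coordinate side, and narrowed by 20 kb, 4211 and 10459 bp. Without the largest group of 3R the density ratio was 5.27. No replicate could be left out. No paired analysis was possible because replicates 1, 2 and 3 share 1 list and the input has no values here. Without reads, stretches without peaks cannot be told from binding below the cut-off.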

Other observations

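The tallest peaks of the 3 groups stood at like distances, a pattern seen after the values were known and not tested. From centre to centre, the peak scoring 318 and the peak scoring 724 were 56.7 kb apart, and the peak scoring 724 and the peak scoring 522 were 53.5 kb apart. Beyond the window, the peaks scoring 457 and 533 lay 57.7 and 61.9 kb from the peak scoring 522. The pattern takes only the tallest peak of each group. The other member with a score of at least 200, scoring 205, stood between the peaks scoring 724 and 522, at 25.5 kb from the former. The 12 members with a score of at least 100 were less evenly spread, with distances between neighbouring centres from 1.33 to 44.4 kb and a median of 7.11 kb.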
